A study of Anopheles stephensi with 4 samples.

Results

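Genes expressed mainly in the midgut of adult female Anopheles stephensi, an Asian malaria mosquito, were described by their levels, structure, isoforms and position. A gene was counted as midgut-enriched when its level in midgut, FPKM + 1, was at least 5 times FPKM + 1 in each of fat body, ovary and Malpighian tubules. FPKM is the number of fragments per kilobase of transcript, scaled by the authors for library size, and a gene's level is the sum over its transcripts. Of 12340 reference genes, 246 met this rule (1.99%), and 4.23% of the 5816 genes at 4 FPKM or more in midgut did. Because the rule used these levels, the difference between midgut and the other tissues is given as a description and not as a finding.

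All 4 tissues were taken from sugar-fed adult females, reared at 27 °C under 70% humidity and a day of 12 h light, 12 h dark, and no treatment or genotype distinguished the groups. Each tissue had 1 library sequenced on 2 lanes, with an estimated 27490386 fragments for midgut, 34929616 for fat body, 34831189 for ovary and 36316750 for Malpighian tubules. Lanes repeat the sequencing and not the dissection, so the comparisons are between single libraries, without a replicate check or a p-value. In whole tissues, fewer cells of a type and less RNA per cell cannot be told apart.

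The mosquito midgut is a simple epithelium that secretes digestive enzymes, absorbs nutrients and lines the meal with a peritrophic matrix. It takes up sugar between blood meals, and it is the first tissue that malaria parasites cross. The Malpighian tubules open at the junction of midgut and hindgut and form the urine, the fat body stores nutrients and makes blood proteins, and the ovary makes the eggs. The files pair gene identifiers with no names, and the reference gene table holds none of them. The labelled midgut could therefore not be checked against marker genes, and no function can be given to a gene. Genes are given by position on the scaffolds of the deposited annotation (1-based, genome build not given in the sources used here), and only the 2 with the largest ratio also by identifier.

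The midgut-enriched genes ranged from 6.79 to 51497 FPKM in midgut. Their median was 193 FPKM there, with quartiles of 59.5 and 783 FPKM, and the median gene was supported by 5303 estimated midgut fragments. In the other tissues the same genes had a median of 9.66 FPKM in Malpighian tubules, 7.02 FPKM in fat body and 2.16 FPKM in ovary. The ratio to the next tissue had a median of 14.2 and quartiles of 7.33 and 26.6. It was at least 10 for 155 genes, at least 50 for 20 and at least 100 for 4. The authors gave bounds by transcript, and those of a gene are their sums. The lower bound in midgut lay above every upper bound elsewhere for 243 of the 246 genes. Between these bounds 182 genes kept a ratio of 5. The rule used the same levels, so this separation is also a description. The bounds carry no spread between mosquitoes.

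**Figure D1:**
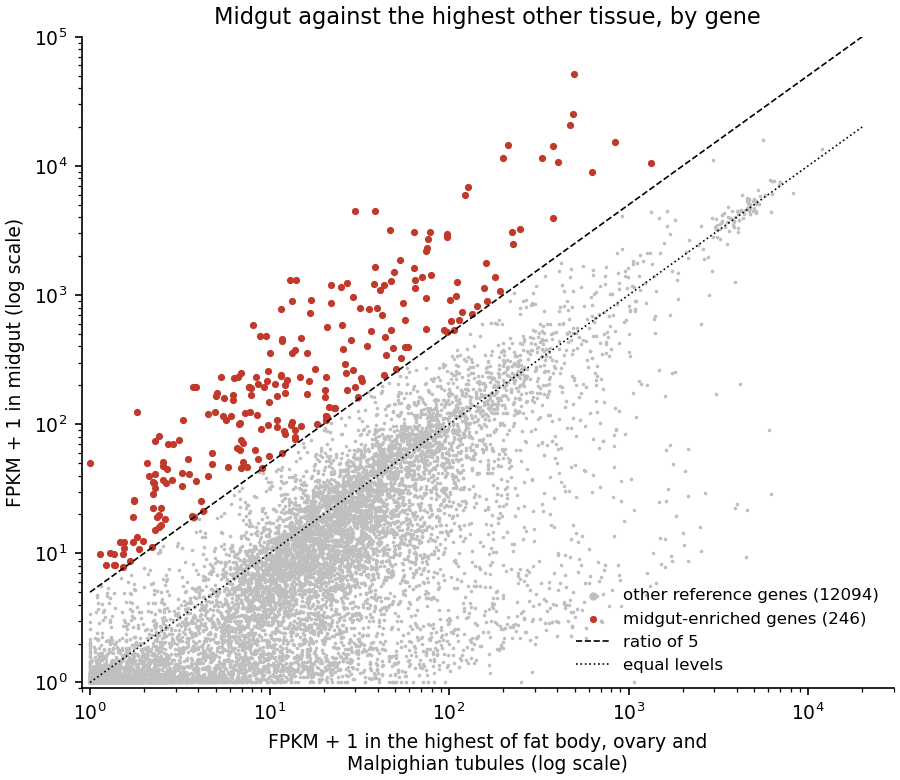
FPKM + 1 in midgut (vertical, log scale) against FPKM + 1 in the highest of the other 3 tissues (horizontal, log scale), 1 point per reference gene and 1 library per tissue. The 246 midgut-enriched genes (red) lie on or above the dashed line at a ratio of 5 and reach 51497 FPKM in midgut.

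The next highest tissue was Malpighian tubules for 145 of the midgut-enriched genes, fat body for 89 and ovary for 12. With the columns set to equal sums, the same 246 genes had Malpighian tubules next in 180 cases, fat body in 42 and ovary in 24. Malpighian tubules were thus the tissue that most often set the ratio with deposited FPKM: left out of the comparison, 450 genes passed, against 296 without fat body and 264 without ovary. The highest Malpighian tubule level among the genes with that tissue next was 1341 FPKM, in a gene with 4 exons (scaffold_00092, 581052 to 582672, plus strand) that had 10480 FPKM in midgut. Among the genes with fat body next, the highest fat body level was 843 FPKM, in a gene with 1 exon and 15212 FPKM in midgut (scaffold_00017, 1813592 to 1813870, minus strand). Among those with ovary next it was 142 FPKM, in a gene with 815 FPKM in midgut (scaffold_00043, 1309610 to 1315323, minus strand).

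At the limit of 5, the ratios passed without a gap. The last gene inside (scaffold_00006, 1584037 to 1585898, plus strand) had a ratio of 5.02, with 20.3 FPKM in midgut against 3.24 FPKM in Malpighian tubules. The one before it (scaffold_00052, 554138 to 578433, minus strand) had a ratio of 5.04, with 10.2 FPKM in midgut and 1.23 FPKM in fat body. The first gene outside (scaffold_00079, 563844 to 565443, minus strand) had a ratio of 4.97, with 176 FPKM in midgut against 34.5 FPKM in Malpighian tubules. The next (scaffold_00028, 1893026 to 1925053, plus strand) had a ratio of 4.94, from 153 and 30.2 FPKM.

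The deposited FPKM of the tissues do not add up to the same total: over reference genes the sum was 1185181 FPKM in midgut, followed by fat body with 842932, Malpighian tubules with 542816 and ovary with 418175 FPKM. Setting each column to 1000000 multiplied fat body by 1.41, Malpighian tubules by 2.18 and ovary by 2.83 relative to midgut. With equal sums 166 genes passed (1.35% of 12340), all of them among the 246. They were 95 of the 145 genes with Malpighian tubules next, 67 of the 89 with fat body next and 4 of the 12 with ovary next. The share kept rose with the midgut level, from 42.3% of the genes below 20 FPKM through 56.9% and 68.1% to 91.8% of those at 1000 FPKM or more. Over the same ranges the median ratio with deposited FPKM rose from 6.66 through 10.3 and 15.8 to 30.7, so lower genes started nearer the limit of 5. Because midgut had the largest sum, this scaling could remove genes and could not add any.

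Expression of the midgut-enriched genes was concentrated in very few of them. Together they held 27.4% of the FPKM of all reference genes in midgut, against 1.87% (Malpighian tubules), 1.03% (fat body) and 0.540% (ovary) elsewhere. As a share of all estimated fragments they held 23.1% in midgut and 1.53%, 0.863% and 0.494% in the same 3 tissues. Just 8 genes made up 50% of their midgut FPKM and 63 made up 90%. By fragments, 14 and 79 genes were needed. The first gene alone held 15.8% of their FPKM and 4.35% of the FPKM of all reference genes.

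**Figure D2:**
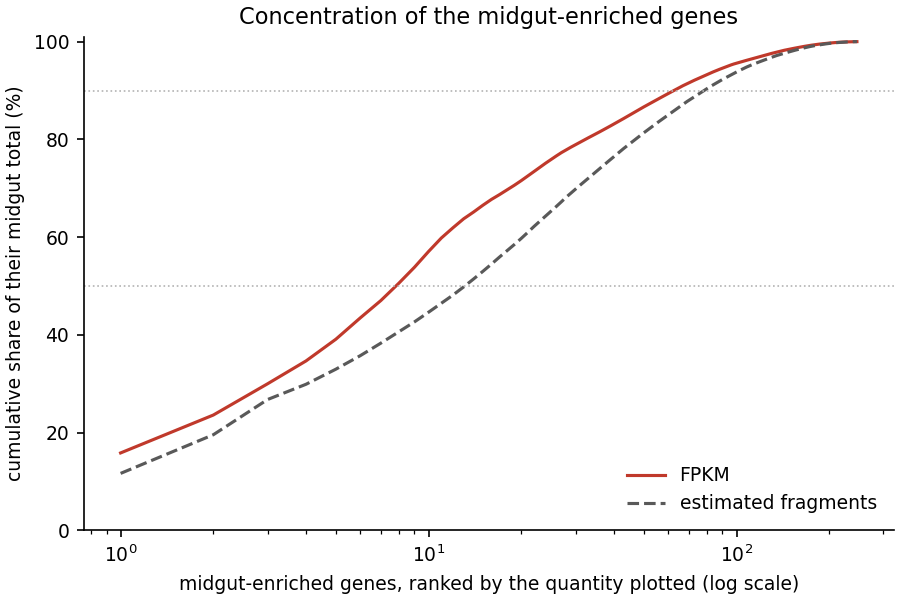
Cumulative share of the midgut total of the 246 midgut-enriched genes (vertical, %) against rank (horizontal, log scale), for FPKM (solid) and for estimated fragments (dashed). Dotted lines mark 50% and 90%, which FPKM reach after 8 and 63 genes and fragments after 14 and 79.

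The 10 most abundant midgut-enriched genes were compact. Their main midgut isoforms had a median of 690 bases and 2 exons, the longest had 1084 bases, and none had more than 4 exons. They held 57.1% of the FPKM of the set and 39.5% of its fragments. Of the 10 reference genes with the highest listed midgut level of all, 8 were midgut-enriched, and of the highest 100, 16 were.

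The first gene (scaffold_00027, 571088 to 572030, plus strand, 2 exons) stood at 51497 FPKM in midgut; elsewhere its FPKM was 493 (fat body), 172 (Malpighian tubules) and 39.5 (ovary). The second (scaffold_00006, 1225764 to 1227721, minus strand, 2 exons) reached 25212 FPKM in midgut, and its other FPKM values were 488 (Malpighian tubules), 458 (fat body) and 167 (ovary). The third (scaffold_00012, 1260907 to 1269489, minus strand) reached 20791 FPKM in midgut, with 470 (Malpighian tubules), 134 (fat body) and 60.2 FPKM (ovary) elsewhere. Midgut was far above the rest in all 3, and fat body and Malpighian tubules exchanged places in the order below it.

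The fourth gene is the single-exon gene of 279 bases on scaffold_00017, with 15212 FPKM in midgut and with 843 (fat body), 389 (Malpighian tubules) and 77.3 FPKM (ovary) elsewhere. The fifth (scaffold_02336, 564 to 1253, plus strand, 601 bases) had 14449 FPKM in midgut, then 213 (fat body), 147 (Malpighian tubules) and 39.5 FPKM (ovary). The sixth, a single-exon gene of 504 bases (scaffold_00023, 366804 to 367307, minus strand), had 14173 FPKM in midgut, then 378, 168 and 94.9 FPKM in the same order of tissues. In these 3 genes fat body came next and ovary was lowest.

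The seventh (scaffold_01107, 785 to 1397, minus strand) had 11564 FPKM in midgut, the eighth (scaffold_00041, 786721 to 788203, plus strand) 11449 FPKM and the ninth (scaffold_00061, 107123 to 107973, minus strand) 10710 FPKM. Against the next tissue the ratios were 35.1, 57.3 and 26.5. The tenth is the gene on scaffold_00092 named above, whose 1341 FPKM in Malpighian tubules left a ratio of 7.81. With equal sums its ratio was 3.58, and it was the only one of the 10 to fall below 5. The ratios of the other 9 with equal sums lay between 12.1 and 74.1.

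**Figure D3:**
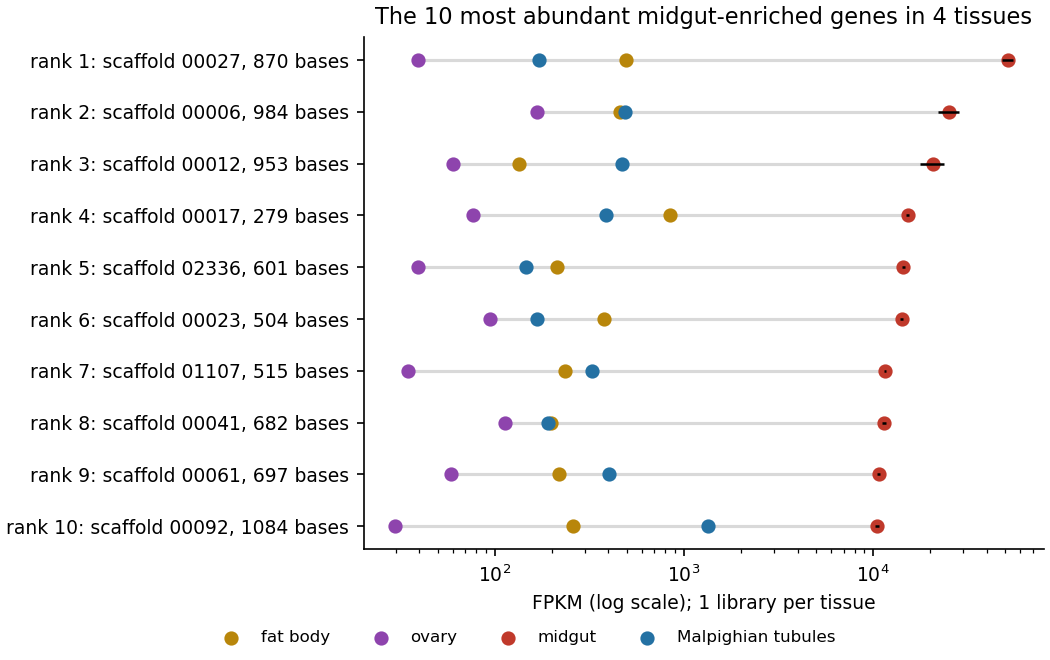
Deposited FPKM (horizontal, log scale) of the 10 midgut-enriched genes with the highest midgut level, 1 row per gene with its scaffold and the length of its main midgut isoform, and 1 point per tissue library. Black bars are the authors' transcript bounds in midgut, summed over the transcripts of each gene. Midgut values run from 10480 to 51497 FPKM, all above 1341 FPKM, the highest value in any other tissue, and ovary is lowest in every row.

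FPKM of short transcripts depend on how the authors' software corrects for fragment length. Dividing the same scaled fragments by the full transcript length, on the scale of transcripts over 5000 bases, gave 6674 in place of 15212 FPKM for the 279-base gene, and 43046 in place of 51497 FPKM for the first gene. Over the 38 midgut-enriched genes under 600 bases the median of this quotient was 0.694, and over the 91 above 2000 bases it was 0.966. On this scale the top 10 genes held 55.3% of the level of the set and 9 genes held 50%.

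In the other tissues, abundant midgut-enriched genes stood at a fraction of their midgut level that the rule keeps below 20% and that varied from gene to gene. Over the 50 most abundant, the median Malpighian tubule level was 2.53% of that in midgut, with quartiles of 1.53% and 4.68%. The fat body level stood at 2.09% (quartiles 1.69% and 2.98%), and the ovary level at 0.461% (0.285% and 0.668%). With equal sums these medians were 5.53%, 2.93% and 1.31%. Ovary was below 1% for 42 of the 50, fat body for 7 and Malpighian tubules for 6. None of the 50 was listed at 0 in any tissue. Over all 246 genes, 21 stayed below 1 FPKM in every other tissue.

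A single midgut-enriched gene was listed at 0 in the other 3 tissues. It lies on scaffold_00076 (501519 to 504111, minus strand), its main isoform has 207 bases in 3 exons, and it had 49.1 FPKM in midgut (bounds 0 to 107) from an estimated 52.1 fragments. Transcripts of another gene on the same strand share 159 of these bases and had 134 FPKM in midgut. No fold is given against tissues at 0. Some midgut-enriched genes share bases with other genes: main isoforms of 20 of the 246 overlapped exons on the opposite strand and 21 those of another gene on the same strand. In 15 genes the overlapping transcripts reached 10% of the gene's own level, so their levels are less certain.

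The genes with the largest ratios, ASTEI10274 and ASTEI10276, lay in the same run of 3 midgut-enriched genes, the second within the span of the first. ASTEI10274 (scaffold_00121, 315302 to 325897, minus strand) had 4473 FPKM in midgut (bounds 4307 to 4638) against 29.1 (Malpighian tubules), 22.8 (fat body) and 4.97 FPKM (ovary), and its ratio was 149. ASTEI10276 (scaffold_00121, 322805 to 324042, plus strand, 2 exons) had 4502 FPKM in midgut (4384 to 4620) against 37.8, 23.8 and 2.28 FPKM in that order, and its ratio was 116. With equal sums the ratios were 69.2 and 53.8.

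The level of ASTEI10274 did not come from its annotated transcript. That transcript has 10 exons and 2754 bases and stood at 1.66 FPKM in midgut, 0.0371% of the gene's level. Elsewhere it had 2.16 (ovary), 0.332 (fat body) and 0.149 FPKM (Malpighian tubules). Taken alone, the annotated transcript was highest in ovary and would not meet the rule. An assembled transcript, described next, set the ratio of the gene. This transcript, of 788 bases in 2 exons (321601 to 322445), held 94.5% of the gene's midgut level. It had 4227 FPKM in midgut against 26.6 (Malpighian tubules), 20.6 (fat body) and 0.991 FPKM (ovary). It ends before ASTEI10276 begins and, by its class, shares a splice junction with the annotated model. Whether it belongs to ASTEI10274 or is a separate gene was not tested.

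Inside the span of ASTEI10274, at 319161 to 320822 on the plus strand, lies another midgut-enriched gene, which ends before the 788-base transcript begins. It had 5978 FPKM in midgut against 122 (fat body), 89.1 (Malpighian tubules) and 14.6 FPKM (ovary). The main isoforms of all 3 have 2 exons and between 788 and 1170 bases, and their midgut levels lay between 4473 and 5978 FPKM. Whether the libraries kept strand is not given in the sources used here, so where exons overlap on opposite strands their reads may be mixed. Here the gene spans overlap, while the main isoforms of the 3 genes share 0 bases with transcripts on the opposite strand.

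Midgut-enriched genes lay next to one another in 20 runs of adjacent genes that held 46 of the 246 (18.7%). Of the 12094 other genes, 3.39% had a midgut-enriched neighbour, and of the 5570 other genes at 4 FPKM or more in midgut 3.68% had one. There were 16 runs of 2 genes, 2 of 3 and 2 of 4, on 20 different scaffolds, and together they carried 26.4% of the FPKM of the set. With equal sums 29 of the 166 genes had such a neighbour (17.5%), against 2.27% of the remaining genes. Genes chosen by the same rule for the other tissues also lay side by side: 24.6% of 427 for fat body (5.54% of the remaining genes), 11.7% of 145 for Malpighian tubules (2.08%) and 8.79% of 182 for ovary (2.59%). With equal sums the shares were 23.6% of 351 genes for fat body (4.57% of the remaining genes), 11.5% of 217 for Malpighian tubules (3.15%) and 18.4% of 727 for ovary (10.2%), so that the ovary share, the lowest with deposited FPKM, lay above that of midgut. These sets differ in size and the differences between them were not tested.

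The neighbours were not mainly in head-to-tail order. Of the 26 adjacent pairs, 10 lay on the same strand (38.5%), 8 converged and 8 diverged. Among the 11326 other adjacent pairs of genes 46.2% lay on the same strand, and among the 3329 with both genes at 4 FPKM or more in midgut 35.6%. Counting only neighbours on the same strand left 7.72% of the midgut-enriched genes with one, against 1.70% of the other genes. Separate genes of a midgut-enriched pair lay a median of 737 bases apart, close to the 735 bases of expressed pairs and nearer than the 2084 bases of all other pairs. Overlapping spans occurred in 6 of the 26 pairs, and 2 pairs fell in the same assembled gene, so that their reads may be shared. Without overlapping pairs 14.6% of the genes had a midgut-enriched neighbour.

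Levels within a pair often differed. The higher gene of a pair had a median of 5.41 times the midgut FPKM of the lower, from 1.06 to 201 times, and 9 of the 26 pairs differed by more than 10 times. The annotated transcripts of a pair had the same number of exons in 5 cases (19.2%, against 17.0% of other pairs) and lengths within 10% of each other in 4 (15.4%, against 9.19%). Both held for 1 pair. Without sequences it was not tested whether neighbours are copies of each other. Where they are, reads may be assigned to the wrong copy.

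The longest run with the highest sum stood on scaffold_00127, where 4 genes between 19427 and 33221 had 119, 1280, 2986 and 726 FPKM in midgut, in order of position. The first 3 have 3 exons each and main isoforms of 691, 526 and 588 bases, and the fourth has 13 exons and 5613 bases. Fat body levels of the 4 were 3.56, 28.4, 63.7 and 15.8 FPKM, and Malpighian tubule levels 3.34, 46.6, 96.2 and 12.9 FPKM. Levels in those tissues thus followed the same order from gene to gene as in midgut, and the ratios lay between 26.3 and 43.2. Ovary levels were between 0.800 and 18.5 FPKM.

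On scaffold_00042, the other run of 4 genes (1507665 to 1525515) had 183, 173, 904 and 74.7 FPKM in midgut. The first of these, with 11 exons, had 26.0 FPKM in Malpighian tubules, for a ratio of 6.82, against 3.18 with equal sums. The others stood at 2.20, 12.3 and 0.934 FPKM in Malpighian tubules and kept ratios of at least 18.0 with equal sums. The last 2 belong to the same assembled gene. On scaffold_00028, a run of 3 genes (1667369 to 1680055) had 14.9, 193 and 107 FPKM in midgut and no more than 6.68 FPKM in any other tissue.

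**Figure D4:**
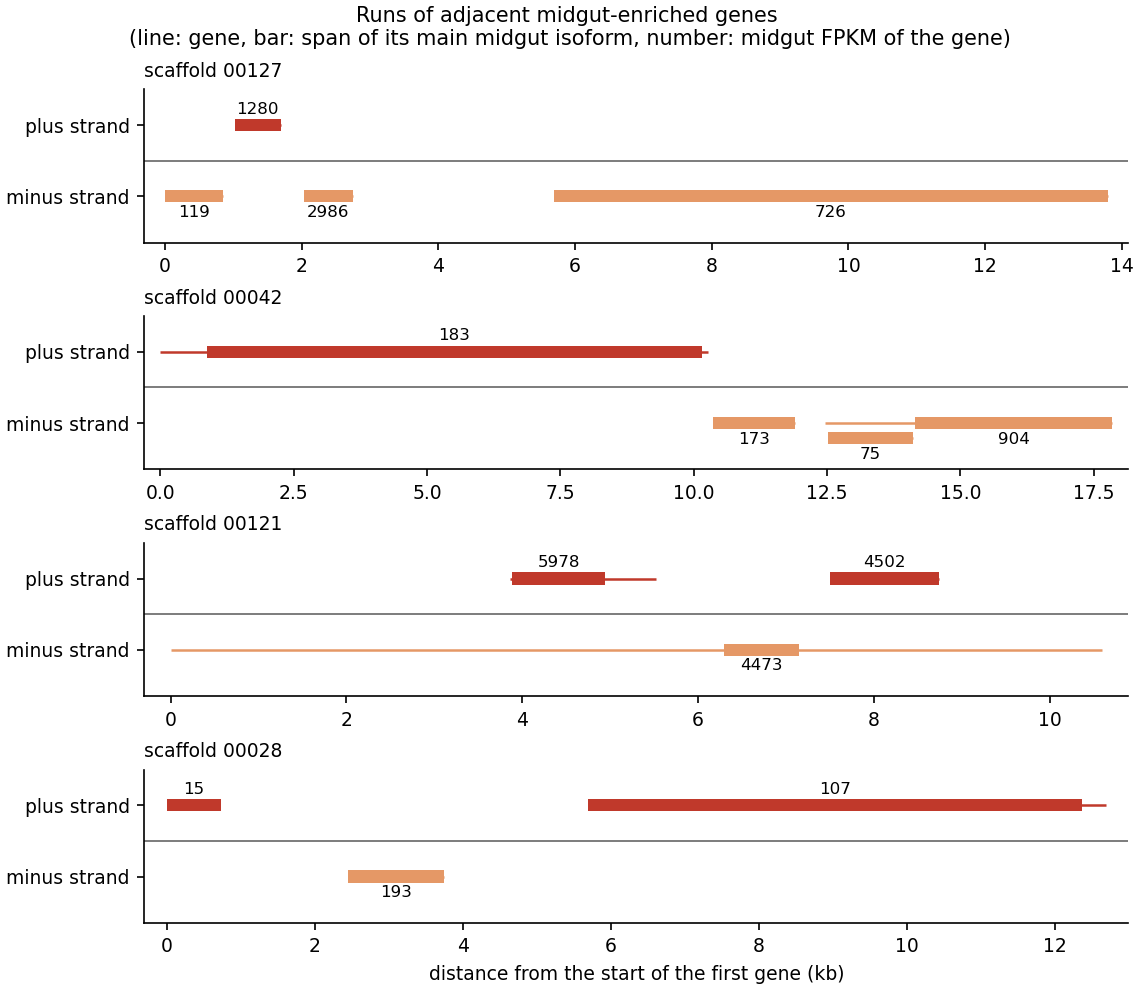
Runs of adjacent midgut-enriched genes on 4 scaffolds, with distance from the start of the first gene (horizontal, kb) and genes above or below the line by strand. Thin lines are the gene spans, bars the span of the main midgut isoform, and numbers the midgut FPKM of the gene, from 14.9 to 5978 FPKM. Neighbours lie on both strands in every run.

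Pooled over levels, length and exon number set the midgut-enriched genes little apart from other genes expressed there. The main midgut isoform had a median of 1560 bases (quartiles 868 and 2622) and 4 exons, and for the 5570 other genes at 4 FPKM or more in midgut 1725 bases (951 and 3287) and 4 exons. For annotated transcripts alone the medians were 1296.5 and 1323 bases, and 4 and 3 exons. Single-exon main isoforms made up 8.94% of the midgut-enriched and 7.47% of the other genes, and isoforms of 10 or more exons 6.50% and 6.32%. By level these shares went both ways. Single-exon isoforms made up 1.72% and 7.52% from 20 to 100 FPKM, and 14.3% and 7.69% at 1000 FPKM or more. Isoforms of 10 or more exons made up 19.2% and 7.54% from 4 to 20 FPKM, and 0% and 0.641% at 1000 FPKM or more. Of the annotated models 88.8% had a length that is a multiple of 3, so most of them hold coding sequence only, while assembled isoforms can include untranslated ends.

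The compactness of the leading genes went with their level and was shared by the other genes. Midgut-enriched genes at 1000 FPKM or more had a median of 897 bases and other genes at that level 756 bases. Between 100 and 1000 FPKM the medians were 1557 and 1385 bases, between 20 and 100 FPKM 1679 and 1606 bases, and between 4 and 20 FPKM 2598 and 2119 bases. For the main isoform the median of the midgut-enriched genes was the longer at each of these levels, and the quartile ranges overlapped. For annotated transcripts the order was the opposite between 4 and 20 FPKM, with 1342 bases against 1534.5 bases for the other genes. Across genes, Spearman's correlation of length and midgut level was -0.27 over the 246 genes and -0.24 over the others. Both axes share the transcript length, since FPKM is divided by it.

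The share of genes that met the rule rose with the midgut level. It was 0.952% of genes from 4 to 20 FPKM, 2.88% from 20 to 100 FPKM, 13.0% from 100 to 1000 FPKM and 23.9% at 1000 FPKM or more. The 49 genes in the last group carried 86.3% of the FPKM of the set, and 156 other genes stood at that level. The midgut level is itself part of the rule, so a rise with it is a description and not a finding. The added 1 FPKM also makes the rule stricter for low genes: with 0.1 FPKM added, 322 genes passed, and with 10 FPKM 164.

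**Figure D5:**
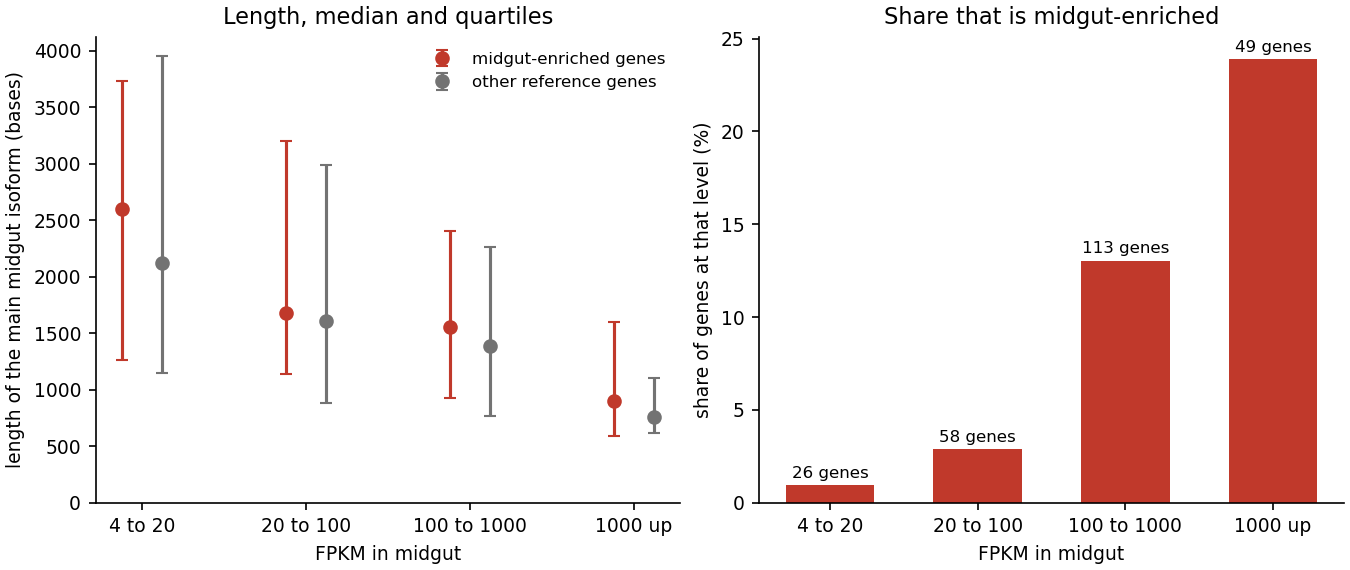
Left, median length of the main midgut isoform (bases) with quartiles as bars, for midgut-enriched genes (red) and other reference genes (grey) in 4 ranges of midgut FPKM. Right, share of the genes in each range that is midgut-enriched (%), with their number. Medians fall from 2598 to 897 bases in the first set and from 2119 to 756 bases in the second, and the share rises from 0.952% to 23.9%. The rule itself uses the midgut level.

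A smaller share of the midgut-enriched genes than of the other genes had several isoforms in midgut. An isoform was counted at 1 FPKM and 10% of the gene's level. Of the 246 genes, 80 had 2 or more (32.5%), against 41.7% of the other genes at 4 FPKM or more. The difference was not the same at every level: the shares were 46.2% and 38.9% from 4 to 20 FPKM, 31.0% and 46.2% from 20 to 100 FPKM, 32.7% and 43.9% from 100 to 1000 FPKM, and 26.5% and 23.1% above. With equal sums the 166 genes had a share of 26.5%. The main midgut isoform was the annotated one in 68.7% of midgut-enriched and 55.1% of other genes. In 47 midgut-enriched genes (19.1%) the annotated isoform held under 10% of the midgut level, against 24.1% of the other genes. The third most abundant gene, on scaffold_00012, stood between: its annotated isoform held 12.6%, and an assembled isoform of 953 bases in 2 exons held 77.4%.

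At most 4 isoforms of a midgut-enriched gene were counted in midgut, in 3 genes. A gene on scaffold_00029 (1899147 to 1926645, plus strand) had 232 FPKM in midgut, of which the annotated isoform held 27.3% and 3 assembled ones 25.4%, 20.7% and 14.98%. In Malpighian tubules, where the gene had 19.7 FPKM, the annotated isoform held 54.9% and the last 2 of the assembled ones 5.38% and 4.15%. The gene that overlaps its end (1914247 to 1926645), with 61.8 FPKM in midgut, also had 4, and both belong to 1 assembled gene of many transcripts, so the split between them is uncertain. The last, on scaffold_00028 (357421 to 371162, minus strand), had 115 FPKM in midgut, with 42.2%, 33.5%, 12.0% and 11.1% in its 4 isoforms.

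The main isoform was usually the same in midgut and in the next tissue. Of 92 midgut-enriched genes with several models and at least 5 FPKM in the next tissue, 15 had a different main isoform there (16.3%), against 20.1% of 3194 other genes. With at least 60% held by a different isoform in each tissue, 3 genes remained (3.26%, against 3.41%). In the most abundant of these (scaffold_00028, 1560615 to 1576568, minus strand, 982 FPKM in midgut, 108 FPKM in Malpighian tubules), the annotated isoform of 8 exons held 77.2% in midgut and 8.23% in Malpighian tubules. An assembled isoform of 6 exons held 72.1% in Malpighian tubules and 0.00167% in midgut.

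Loci outside the reference genes met the same rule about as often. Of 2432 intergenic loci, 47 had a midgut level at least 5 times that of every other tissue (1.93%). With equal sums 24 did (0.987%), against 1.35% of reference genes. The median of the 47 loci was 19.0 FPKM in midgut, and they held 5.24% of the intergenic FPKM there. The most abundant (scaffold_00006, 3753467 to 3755169, 1 exon) had 890 FPKM in midgut against 30.6 (fat body), 20.2 (Malpighian tubules) and 14.2 FPKM (ovary). It lay at a distance of 0 bases from a reference gene, as did others of the 47, so these are not clear of reference genes. The second (scaffold_01329, 1935 to 2970, 1 exon) had 532 FPKM in midgut and 16.8 FPKM in fat body, the next tissue. The third (scaffold_00097, 63795 to 65134, 2 exons) had 251 FPKM, with 20.7 FPKM in Malpighian tubules. Of the 30 such loci on a scaffold with a reference gene, 3 had a midgut-enriched gene as the nearest one, against 23 of 1029 other loci.

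Some genes could not be assessed. On scaffold_00061, between 544703 and 564386, the authors' software marked all 13 transcripts of 6 genes as having too many fragments in midgut and listed them at 0. These 6 genes had between 0.158 and 893 FPKM in Malpighian tubules and between 0.187 and 1066 FPKM in fat body, so their true midgut levels and any enrichment are unknown. All midgut ranks, shares and FPKM sums above, and the equal sums drawn from them, count these 6 genes at 0. Their fragments may also be missing from the estimated midgut total, so the midgut library may have been deeper than stated. A gene on scaffold_00030 (1176877 to 1228865, minus strand) with failed estimates was listed at 49.7 FPKM in midgut against 33.8 FPKM in Malpighian tubules. None of the 246 genes had a transcript with a failed estimate in any tissue.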

How the data were processed

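RNA sequencing of 4 tissues, 1 library each, was analysed at the level of reference genes. The submitters' processing notes name StringTie 1.2.1, HISAT2, Cuffdiff and CASAVA 1.8, with no role or genome build, and per the file headers the authors gave FPKM with lower and upper bounds and a status for each transcript. Values that the authors deposited as counts are a signal, scaled between libraries: between 98.3% and 99.0% of low values lay within 0.1% of a whole sum of 2 steps, 1 for each lane, and dividing by the steps gave estimated fragments. Gene levels summed transcripts that match the annotated one, share a junction with it, overlap its exons, or are single-exon transcripts within it. Neighbours were taken in order of gene start on each scaffold. With 1 library per tissue no model was fitted. The code for the rule and the neighbour counts was tested on simulated data (Python 3.11.15, pandas 2.3.3). The planted genes lay clear of the limit and had no overlapping spans. That test therefore checked the code and not how the rule or the counts hold for these data. Genes given by position are the 10 most abundant, those of the 4 largest runs, those at the limit, the highest per next tissue and those with most isoforms. Other genes were chosen after their values were seen: the gene listed at 0 elsewhere, the gene with different main isoforms and the genes with failed estimates. The rule, members and lists were chosen with earlier results of these data known.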

Additional observations from a re-analysis of the deposited data

Results flagged for a closer look

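Transcripts inside introns, on the strand opposite to a gene or just past a gene end were left out of all gene levels, and some were abundant in midgut. Among reference genes 246 of 12340 met the rule for midgut. Of 82 intronic transcripts 7 did, 4 of them at a midgut-enriched gene. The highest (scaffold_00061, 488287 to 490201, plus strand, 2 exons) had 5767 FPKM in midgut (bounds 5647 to 5887), 173 FPKM in Malpighian tubules, 93.2 FPKM in fat body and 31.8 FPKM in ovary, a ratio of 33.2 and with equal sums 15.3. The gene around it had 0.588 FPKM in midgut. Of 264 opposite-strand transcripts 11 met the rule, 4 of them at a midgut-enriched gene. The highest (scaffold_00012, 1261290 to 1263686, 200 bases) had 267 FPKM in midgut with bounds of 0 to 1394. It lies across the third most abundant midgut-enriched gene. Of 324 transcripts past a gene end 4 met the rule, 2 of them at a midgut-enriched gene. The highest (scaffold_00079, 356859 to 357092) had 143 FPKM in midgut, 12.2 FPKM in fat body and a ratio of 10.9. How many of all transcripts of these kinds lie at a midgut-enriched gene was not counted. The numbers at such genes therefore do not show that the transcripts gather there. The count for reference genes is of genes, while these are of single transcripts.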

How the results depend on the processing

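The count of 246 midgut-enriched genes stayed within 1.5 times, from 164 to 369 genes, under 16 of 19 alternatives. It was 667 at a ratio of 2, 155 at a ratio of 10 and 450 without Malpighian tubules. Equal sums without the 100 genes of highest mean gave 210 genes, 202 of them among the 246, and median-of-ratios scaling gave 245, of which 243 were shared. With levels from annotated transcripts only, 224 genes passed, and just 195 of them were among the 246. At the lower end of the range, equal sums over all reference genes gave 166 and 10 FPKM added gave 164. The share of midgut FPKM, 27.4%, was 24.95% with equal sums, 27.4% with median-of-ratios scaling, 37.9% at a ratio of 2, 24.9% at a ratio of 10, 31.5% with annotated transcripts only, 24.6% by fragments of reference genes, 25.5% of all transcripts and 27.1% over full transcript length. The last alternative, and that on overlapping spans, were chosen after seeing the data. The median length was 1255.5 bases with levels from annotated transcripts only, 1296.5 bases for the annotated and 1986.5 bases for the longest isoform. The median exon number stayed at 3 or 4 under 8 alternatives. The share with a midgut-enriched neighbour was 27.4% at a ratio of 2, 7.72% on the same strand and 26.0% with up to 2 genes between. The share with several isoforms was 26.5% with equal sums, 38.8% at a ratio of 2, and 41.5% and 23.6% at isoform limits of 5% and 20%. It was not run with annotated transcripts only, which leave 1 isoform per gene. The causes were not tested. No paired analysis was possible because each tissue had 1 library. Depth limits low genes most: 2 of the 246 genes had under 20 midgut fragments.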
